A study of Mus musculus with 4 samples.

Results

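The genes described here are 8 chemokine ligand genes, Ccl3, Ccl4, Ccl5, Ccl22, Cxcl9, Cxcl10, Cxcl16 and Xcl1, picked by symbol from a count table of 27179 genes. Their counts were compared in RNA sequencing libraries of CD4+Foxp3+ regulatory T cells (Treg cells) from spleen and peripheral lymph nodes (C57BL/6 mice, steady state). There were 2 libraries labelled WT and 2 labelled P65KO, deficient in RelA (p65), a DNA-binding subunit of NF-kB. The sources used here do not give the age or number of the mice, the allele or what drove its deletion. All 8 genes were in the table and each had counts in at least 3 of the 4 libraries, but 4 of them (Ccl5, Cxcl10, Cxcl16 and Xcl1) had enough counts to be tested.

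Chemokines are small secreted proteins that guide leukocytes by binding G protein-coupled receptors. They are named after the spacing of their first cysteines as CC, CXC or C chemokines. Ccl3, Ccl4 and Ccl5 encode inflammatory CC chemokines that activated T cells and myeloid cells make, and CCL5 and CCL3 bind CCR1. Ccl22, known as a dendritic cell product, encodes a ligand of CCR4. Cxcl9 and Cxcl10 encode the interferon-inducible ligands of CXCR3. Cxcl16 encodes a transmembrane ligand of CXCR6 found on macrophages and dendritic cells, and Xcl1 encodes lymphotactin, a T and NK cell product that binds XCR1 on cross-presenting dendritic cells. NF-kB is a textbook activator of several of these genes.

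Library totals ran from 4513863 to 4624230 counts. Rela had 875 and 806 counts in WT against 820 and 909 in the P65KO-labelled pair, and counts over a whole gene cannot check a deletion of a part of it, so every direction below is that of the label. Xist had 494 and 608 counts in WT against 0 and 2 in the P65KO-labelled pair. The Y-linked genes Kdm5d, Eif2s3y and Ddx3y had 0 counts in both WT libraries. In the P65KO-labelled pair they had 199 and 239, 332 and 432, and 302 and 404. The labels do not give the sex, but by these transcripts it goes with the genotype label. Sex and label thus cannot be told apart for any gene here. Counts of replicates scattered more widely than sampling alone gives, with a chi-square over its degrees of freedom of 3.61 for WT and 3.97 for P65KO. The P65KO-labelled replicate 1 library stood apart in myeloid transcripts: summed over 15 monocyte and macrophage markers it held 892 CPM (counts scaled to library size by TMM), against 307 in P65KO-labelled replicate 2 and 132 and 191 in WT. Values without this library are given beside the ligand results that rest on it.

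The RefSeq promoter table (GRCm38.p6) had entries for Ccl3, Ccl22, Cxcl9, Cxcl10 and Xcl1, and none for Ccl4, Ccl5 and Cxcl16. Among the 5 searched, Cxcl10 was the one whose 250 bases before the start held matches to the kB consensus, the 10-letter motif bound by NF-kB, searched by that name on both strands. It also held the interferon-stimulated response element, searched on both strands as GAAA, any 2 bases and GAAA. Its window, chr5:92348890-92349139 on the minus strand, is shown because Cxcl10 had the largest fall among the members tested. That of Cxcl9, chr5:92328080-92328329 on the minus strand, is shown as its neighbour on chromosome 5. Cxcl9 had too few counts to be tested, so a fall of it could not have been seen. Capitals mark matches to the kB consensus and to the response element, read 5′ to 3′ towards the start.
Cxcl10: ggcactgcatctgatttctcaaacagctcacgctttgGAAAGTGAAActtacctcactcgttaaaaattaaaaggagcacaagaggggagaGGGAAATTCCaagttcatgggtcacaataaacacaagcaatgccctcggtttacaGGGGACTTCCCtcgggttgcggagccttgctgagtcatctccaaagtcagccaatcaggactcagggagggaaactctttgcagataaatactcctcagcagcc
Cxcl9: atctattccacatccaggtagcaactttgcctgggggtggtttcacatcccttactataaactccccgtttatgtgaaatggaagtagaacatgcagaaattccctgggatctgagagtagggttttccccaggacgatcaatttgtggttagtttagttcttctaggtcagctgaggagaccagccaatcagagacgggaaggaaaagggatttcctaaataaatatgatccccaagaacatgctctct
In Cxcl10 the response element match stood from -213 to -204 relative to the start. The kB matches were GGGAAATTCC at -159 to -150 and a pair that overlap each other, GGGGACTTCC at -104 to -95 and GGGACTTCCC at -103 to -94. Over all 32851 windows of the same length, 7.25% held a kB consensus match and 2.98% a response element match. The windows of Ccl3, Ccl22, Cxcl9 and Xcl1 held no full match to either, and near matches were not searched. TTCNNNGAA, the interferon-gamma activated site, was searched too and stood in none of the 5 windows, against 7.02% of all windows.

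Ccl5 and Cxcl10 were the dominant ligand transcripts of WT Treg libraries and both were lower in the P65KO-labelled ones. Together they made up 92.4% and 93.7% of the members' 382 and 479 counts in WT, and 57.1% and 65.3% of 212 and 101 counts in the P65KO-labelled libraries. Of the 4 members tested, 2 fell, 1 (Cxcl16) rose and 1 (Xcl1) did not pass (edgeR's quasi-likelihood test with Benjamini-Hochberg adjustment, adjusted p under 0.05). Cxcl16 entered the test only through the P65KO-labelled libraries, and Cxcl10 and Xcl1 only through the WT libraries. Each was high in those libraries, so the calls of Cxcl16 and Cxcl10 support nothing by themselves. Over all 11172 genes tested, 20.7% were called, 11.7% lower and 9.0% higher, with a median log2 difference of 0.0025. These values are the baseline for the gene lists below. With no filter on low counts 4.76% of 16183 genes were called, 1.52% higher and 3.24% lower, and of the 8 members 2 fell and 0 rose.

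**Figure D1:**
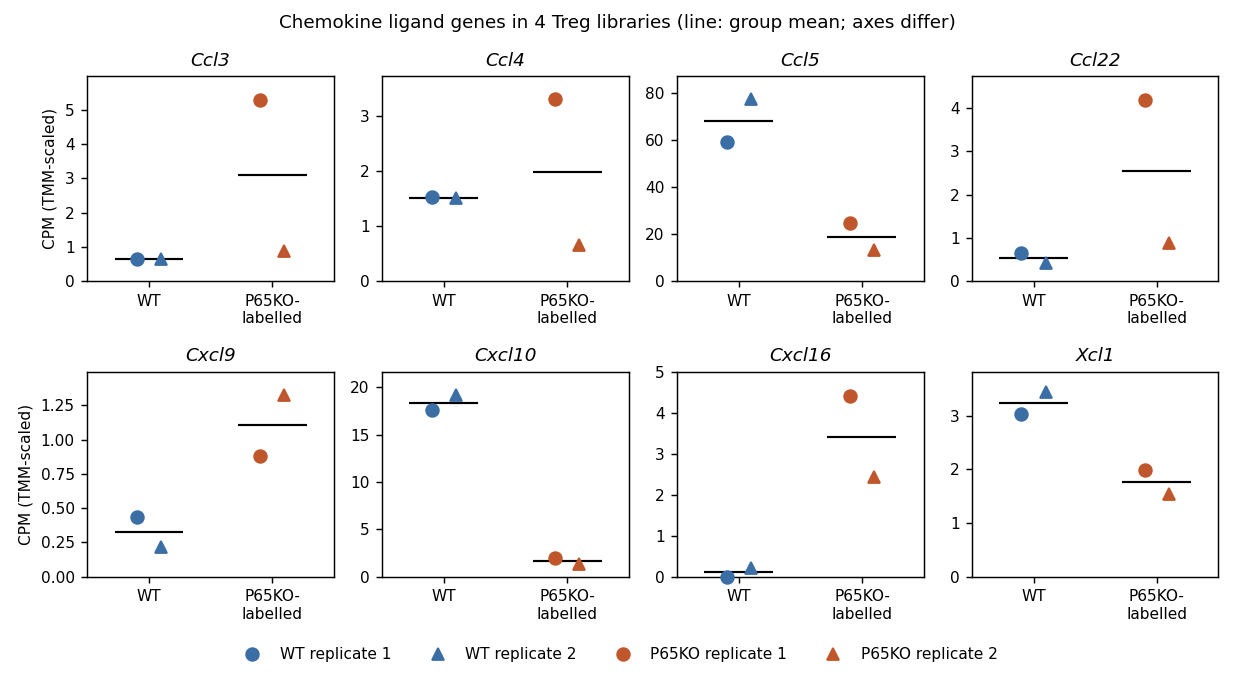
Level of each of the 8 chemokine ligand genes in every library, in TMM-scaled CPM from 0, with circles for replicate 1, triangles for replicate 2 and a line at the group mean (n = 2 each). Ccl5 fell from a mean of 68.2 to 19.0 CPM and Cxcl10 from 18.4 to 1.66 CPM, while Ccl3, Ccl4 and Ccl22 were highest in P65KO-labelled replicate 1.

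Ccl5 (Entrez 20304; GRCm38 chromosome 11, 83525778 to 83530518), or RANTES, had 272 and 360 counts in WT against 112 and 60 in the P65KO-labelled pair. Both P65KO-labelled libraries lay below both WT libraries, and P65KO-labelled replicate 1 held more than replicate 2. In RefSeq the gene lies within Gm32650, which was not analysed here. The mean level went from 68.2 ± 13.0 in WT to 19.0 ± 8.07 CPM (SD, n = 2 each). This was a 3.59-fold fall (log2 -1.84, SE 0.22, 95% interval -2.32 to -1.37; edgeR BH-adjusted p = 7.67e-05). Leaving out P65KO-labelled replicate 1 gave a log2 difference of -2.35, and the call was kept in every setting tried, with the highest edgeR adjusted p at 0.0480, with no filter.

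Ccl5 is also made by CD8 T cells and NK cells. The NK and innate lymphoid markers summed to 46.0 and 61.1 CPM in WT against 55.6 and 44.7 in the P65KO-labelled pair. Of the 9 in that list, 5 were tested, Prf1 (perforin) rose and Klrb1c fell, and Ncr1, which defines NK cells, had 4 to 11 counts in every library. The Prf1 call was lost with no filter, with DESeq2 and with any library left out, and the Klrb1c call when WT replicate 2 was left out. The 2 CD8 markers summed to 25.4 and 25.8 CPM in WT and to 32.9 and 32.1 CPM in P65KO-labelled libraries. Cd8b1 supplied most of that sum, with 113 and 114 counts in WT against 138 and 141, while Cd8a had 4 and 6 against 11 and 4. The part of these cells in the Ccl5 counts was not tested.

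Cxcl10 (Entrez 15945; chromosome 5, 92346638 to 92348889), or IP-10, had 81 and 89 counts in WT against 9 and 6 in the P65KO-labelled pair. The WT libraries stood close together and far above both others. Its level fell from 18.4 ± 1.11 to 1.66 ± 0.464 CPM (SD, n = 2 each), 10.9-fold (log2 -3.45, SE 0.31, 95% interval -4.13 to -2.77; edgeR BH-adjusted p = 8.69e-06). The call was kept in every setting tried, with no filter too (edgeR BH-adjusted p = 0.0104). Cxcl10 passed the filter on low counts only through the WT libraries, where it was high. Its call with the filter is therefore given as a description. The Cxcl10 window with the kB matches is printed above.

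The Cxcl10 gene lies wholly inside Art3, a gene on the other strand that encodes an ADP-ribosyltransferase, and GENCODE M21 exons of both share 133 bases. Art3 had 27 and 31 counts in WT against 4 and 5 in the P65KO-labelled pair. It fell 6.16-fold (log2 -2.62, SE 0.46; edgeR BH-adjusted p = 0.00141). Art3 passed the filter only through the WT libraries, where it was high, so its call supports nothing by itself. The strand setting of the counting is not known, so reads of both genes cannot be told apart where they overlap. Art3 was named after its values were seen.

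Cxcl9 (Entrez 17329; chromosome 5, 92321331 to 92328079), or MIG, had 2 and 1 counts in WT against 4 and 6 in the P65KO-labelled pair, too few to be tested. The ratio of P65KO-labelled to WT counts was 3.41 (exact 95% conditional binomial interval 0.878 to 19.3), an interval that includes 1. Of the CXCR3 ligands, then, Cxcl10 fell, while Cxcl9 had too few counts in WT for a fall to be seen. The third ligand of that receptor, Cxcl11, had 2 counts in WT replicate 1 and 0 in the other libraries.

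Xcl1 (Entrez 16963; chromosome 1, 164931644 to 164935522) had 14 and 16 counts in WT against 9 and 7 in the P65KO-labelled pair. The groups did not overlap, but the difference did not pass. The mean level was 3.24 ± 0.286 in WT beside 1.77 ± 0.307 CPM (SD, n = 2 each; log2 -0.86, SE 0.47; edgeR BH-adjusted p = 0.231). The 95% interval of the log2 difference ran from -1.89 to 0.16.

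Cxcl16 (Entrez 66102; chromosome 11, 70454389 to 70459984) was nearly absent from WT, with 0 and 1 counts, and had 20 and 11 counts in P65KO-labelled libraries. The ratio of the summed counts was 31.7 (exact 95% interval 5.28 to 1292, counting error only). Cxcl16 passed the filter on low counts only through the P65KO-labelled libraries, so a gene tested on such counts had to differ, and its call is given as a description (log2 4.67, SE 0.91; edgeR BH-adjusted p = 0.00301). The call was lost with no filter on low counts (edgeR BH-adjusted p = 0.0645) and with DESeq2 (0.0513). It was also lost when either WT library was left out (0.104 for replicate 1 and 0.0661 for replicate 2). Without P65KO-labelled replicate 1 it had too few counts to be tested, and P65KO-labelled replicate 2 alone gave a ratio to WT of 22.5 (exact 95% interval 3.28 to 970). Zmynd15, on the other strand, shares 552 exonic bases with it and had 0 counts in 3 libraries and 2 in P65KO-labelled replicate 2.

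Ccl3 (Entrez 20302; chromosome 11, 83647843 to 83649378), or MIP-1alpha, had 3 counts in each WT library, 24 in P65KO-labelled replicate 1 and 4 in replicate 2. Ccl22 (Entrez 20299; chromosome 8, 94745684 to 94751388), or MDC, had 3 and 2 counts in WT, 19 in P65KO-labelled replicate 1 and 4 in replicate 2. In both genes 1 library carried the difference. The ratio of P65KO-labelled replicate 1 to WT was 8.16 for Ccl3 (exact 95% interval 3.25 to 24.4) and 7.76 for Ccl22 (2.80 to 26.6). For replicate 2 it was 1.37 (0.284 to 5.76) and 1.64 (0.325 to 7.62). Neither gene had enough counts to be tested over all 4 libraries.

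Ccl4 (Entrez 20303; chromosome 11, 83648624 to 83664683), or MIP-1beta, had 7 counts in each WT library and lay between the P65KO-labelled libraries, with 15 counts in replicate 1 and 3 in replicate 2. Its ratio to WT was 2.19 for replicate 1 (exact 95% interval 0.984 to 4.89) and 0.439 for replicate 2 (0.0809 to 1.57). RefSeq gives Ccl3 and Ccl4 an overlap of 755 bases on opposite strands, while their GENCODE exons share 0 bases. With no filter, none of Ccl3, Ccl4, Ccl22 and Cxcl9 passed (edgeR BH-adjusted p of 0.292, 0.795, 0.277 and 0.265).

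**Figure D2:**
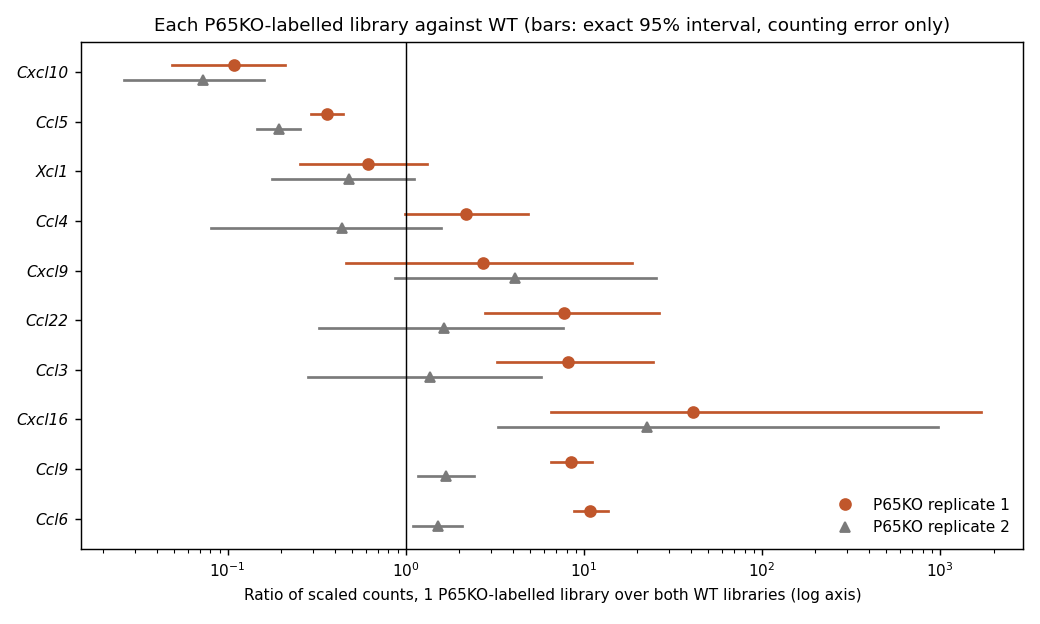
Ratio of the scaled counts of each P65KO-labelled library to both WT libraries, on a log axis, for the 8 members and for Ccl9 and Ccl6, with exact 95% intervals that cover counting error only; the line marks a ratio of 1. Every gene but Cxcl9 lay further right in replicate 1 (circles) than in replicate 2 (triangles). Ccl5 (0.362 and 0.195) and Cxcl10 (0.108 and 0.0723) did so too, with intervals left of 1 in both.

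Over all 8 members, 3 were lower and 4 higher with groups that did not overlap, and Ccl4 overlapped. Of all genes tested, 30.9% were lower and 29.7% higher without overlap, so such a separation is common in these 4 libraries. Per length, in RPKM, the order of the mean levels in WT was Ccl5 at 130, Cxcl10 at 16.9, Xcl1 at 6.54, Ccl4 at 2.32, Ccl3 at 0.832, Ccl22 at 0.303, Cxcl9 at 0.114 and Cxcl16 at 0.0443. Only Cxcl9 and Cxcl16 overlapped with their neighbour in that order. In P65KO-labelled libraries Ccl5 still led, at 35.1 RPKM. It was followed by Ccl3 at 3.85, Xcl1 at 3.46, Ccl4 at 2.96, Cxcl10 at 1.48, Ccl22 at 1.38, Cxcl16 at 1.37 and Cxcl9 at 0.373 RPKM. From Ccl3 to Cxcl16 each gene overlapped with the next. Cxcl10, at 1.78 and 1.18 RPKM, overlapped with Ccl3, Ccl4, Ccl22 and Cxcl16 there, but lay below Xcl1 and above Cxcl9 without overlap.

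Among the other 33 mouse chemokine ligand genes, 2 had enough counts to be tested, and both rose. Ccl6 and Ccl9 are CC chemokines of myeloid cells whose genes lie in the same cluster on chromosome 11 as Ccl3, Ccl4 and Ccl5. Ccl6 had 53 and 46 counts in WT, 528 in P65KO-labelled replicate 1 and 73 in replicate 2. It was 6.19-fold higher (log2 2.63, SE 0.65; edgeR BH-adjusted p = 0.0126). Ccl9 had 28 and 45 counts in WT, 304 in P65KO-labelled replicate 1 and 60 in replicate 2, a 5.08-fold rise (log2 2.35, SE 0.57; edgeR BH-adjusted p = 0.0109). Without P65KO-labelled replicate 1 both calls ended, at 1.51-fold for Ccl6 and 1.69-fold for Ccl9 (edgeR BH-adjusted p of 0.130 and 0.129). Both calls were also lost when either WT library was left out, with no filter, with limma-voom and with DESeq2, but there the folds stayed at 4.05 to 6.68 for Ccl6 and 3.86 to 6.59 for Ccl9. Ccl1, a T cell ligand of CCR8, had 9 and 10 counts in WT, 8 in P65KO-labelled replicate 1 and 0 in replicate 2.

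Most myeloid markers, too, were higher in the P65KO-labelled libraries. All 8 tested members of the monocyte and macrophage list of 15 rose, with a median log2 difference of 1.85. Over all genes tested, 9.0% were called higher. C1qa had 8 and 14 counts in WT against 38 and 30, and C1qc 3 and 9 against 35 and 20. Both passed the filter only with the P65KO-labelled libraries, so their calls support nothing by themselves. Of the 15, 12 lay higher without overlap, beside 29.7% of all genes tested, and Cd14, Mertk and Cd163 overlapped. Some of the 12 had few counts, such as Spic with 3 and 2 in WT against 9 and 3. Cd14 had 4 and 2 counts in WT against 3 and 0, and Mertk 3 and 5 against 3 and 1. Csf1r, the receptor for M-CSF, had 67 and 79 counts in WT against 437 and 177 in the P65KO-labelled pair. Adgre1 (F4/80) had 11 and 21 against 212 and 113, Lyz2 (lysozyme) 419 and 655 against 2880 and 872, and Lyz1 12 and 19 against 80 and 24. Calls of the list fell to 1 with no filter and when either WT library was left out, and to 4 with DESeq2 or when P65KO-labelled replicate 1 was left out. No gene of the list was at 0 in all libraries.

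Dendritic cell markers summed to 10.4 and 17.2 CPM in WT against 139 and 70.9 in the P65KO-labelled pair. Of the 4 tested of 9, 3 rose: Itgax, Flt3 and Cd209a. Flt3 had 4 and 10 counts in WT against 78 and 28, and Cd209a 5 and 14 against 73 and 52. Both passed the filter only with the P65KO-labelled libraries, where they were high, so their calls support nothing by themselves. The Flt3 call was lost with no filter (edgeR BH-adjusted p = 0.106) and when either WT library was left out. Itgax (CD11c) had 19 and 35 counts in WT against 427 and 219 in the P65KO-labelled pair, and its call was kept in every setting tried. Zbtb46, the factor that defines classical dendritic cells, did not pass, with 10 and 4 counts against 15 and 9. Clec9a had 1 and 3 counts in WT against 6 and 0 in the P65KO-labelled pair. Siglech, a plasmacytoid marker, had 1 count in WT replicate 2 and 0 in the other libraries.

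Neutrophil markers summed to 39.3 and 35.1 CPM in WT, 144 CPM in P65KO-labelled replicate 1 and 23.3 CPM in replicate 2. None of the 6 tested of 9 passed. Without P65KO-labelled replicate 2 the log2 differences of S100a8, S100a9 and Ltf were 1.74, 1.86 and 2.09. Without replicate 1 they were -1.54, -0.50 and -1.03. Each of these fits rested on 1 P65KO-labelled library, so only the size of the difference is given. S100a8 had 39 and 33 counts in WT against 118 and 12 in the P65KO-labelled pair, and S100a9 74 and 60 against 239 and 46. Ltf had 6 and 11 against 36 and 4, and Ly6g, which defines neutrophils, had 1 count in WT replicate 1 and 0 elsewhere. Replicate 1 was thus the highest library in the summed monocyte, dendritic and neutrophil markers, and also in Ccl3, Ccl4, Ccl22, Cxcl16, Ccl6 and Ccl9. What part of these ligand counts came from myeloid cells was not tested.

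**Figure D3:**
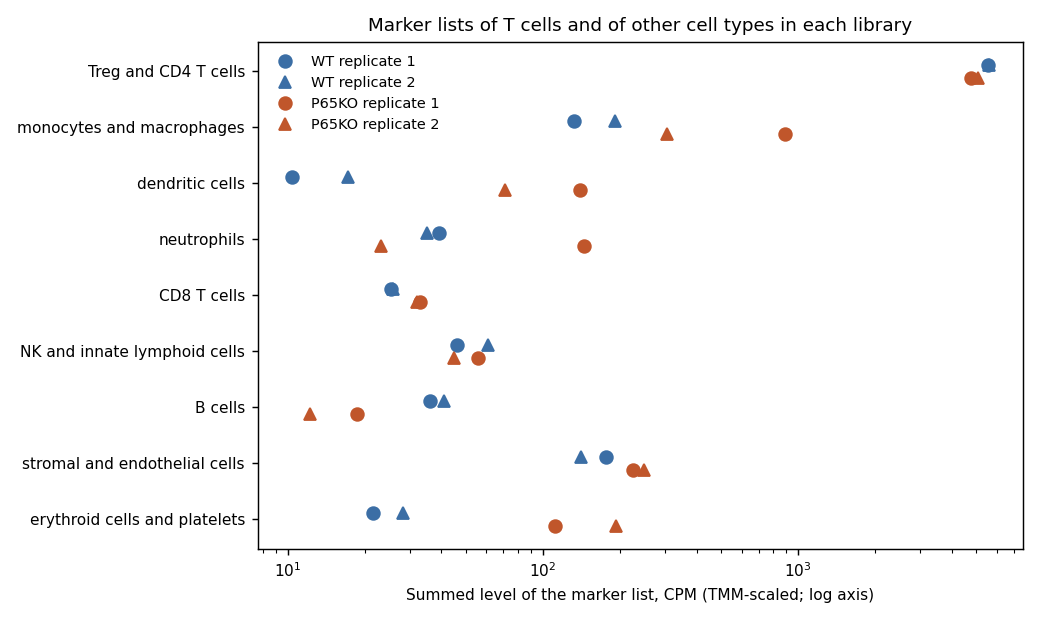
Summed level of each marker list in every library, in TMM-scaled CPM on a log axis; blue is WT, orange P65KO-labelled, circles replicate 1 and triangles replicate 2. P65KO-labelled replicate 1 reached 892 CPM for monocyte and macrophage markers, 139 for dendritic and 144 for neutrophil markers, the highest of the 4 libraries in each.

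Set against the summed counts of the 15 monocyte and macrophage markers, a measure chosen after the values were seen, the members fell into different ranges. Lyz2 supplied most of the marker counts. Per 1000 marker counts, Ccl3 stood at 4.02 in WT (exact 95% interval 1.47 to 8.76) and 5.16 in P65KO-labelled libraries (3.42 to 7.46). Ccl22 stood at 3.35 (1.09 to 7.83) and 4.24 (2.68 to 6.36), and Cxcl9 at 2.01 (0.414 to 5.88) and 1.84 (0.883 to 3.39). For these 3 genes the intervals of both groups overlapped widely. P65KO-labelled replicate 1 supplied most of the marker counts of its group. In replicate 2 alone, Ccl3 and Ccl22 both stood at 2.89 (0.786 to 7.41) and Cxcl9 at 4.33 (1.59 to 9.45), against 0.989 (0.269 to 2.53) for Cxcl9 in replicate 1. Cxcl16 stood at 0.669 (0.0169 to 3.74) and 5.71 (3.88 to 8.11) per 1000 marker counts, pooled intervals that did not overlap, while those of single libraries did (0 to 6.10 and 0.0285 to 6.30 in WT, 3.02 to 7.65 and 3.96 to 14.3 in the P65KO-labelled pair). Ccl4 stood at 9.37 (5.11 to 15.8) and 3.31 (1.96 to 5.24), intervals that overlapped at their ends. Xcl1 stood at 20.1 and 2.95, Ccl5 at 423 and 31.7 and Cxcl10 at 114 and 2.76. In P65KO-labelled replicate 2 alone these 3 stood at 5.05, 43.3 and 4.33. The marker counts themselves were 1494 in WT and 5430 in the P65KO-labelled pair. Any gene whose counts did not rise as much therefore had to stand lower, so this measure adds nothing to the fall of Ccl5 and Cxcl10. The difference of Xcl1 in its own counts did not pass. In bulk libraries, fewer cells of a type and less RNA per cell cannot be told apart.

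The remaining lists differed in direction. Treg and CD4 T cell markers summed to 5559 and 5579 CPM in WT against 4739 and 5090 in the P65KO-labelled pair. Cd3d, Cd3e, Cd3g and Cd4 each had at least 3146 counts in every library, and Foxp3 had 1737 and 1724 counts against 1751 and 2385. Of the 8, 3 fell: Ikzf2 (Helios) 3.14-fold, Ctla4 1.89-fold and Cd3g by a log2 difference of -0.27. Il2ra rose, 1.34-fold, but that call was lost with no filter and when either WT library or P65KO-labelled replicate 2 was left out. The Cd3g call was lost in 7 settings, the replicate block among them. B cell markers summed to 36.0 and 41.1 CPM in WT against 18.7 and 12.2 in the P65KO-labelled pair. Cd79b supplied most of that sum and was the 1 gene tested, which fell, while Ms4a1 (CD20) had 3 and 4 counts against 6 and 2. The stromal and endothelial list summed to 177 and 142 CPM in WT and 225 and 248 in P65KO-labelled replicates 1 and 2. In it 1 gene was tested, Pecam1. It rose, a call lost with no filter and when WT replicate 2 or P65KO-labelled replicate 2 was left out, while Col1a1 had 8 and 3 counts in WT against 0 and 2 in the P65KO-labelled pair. Erythroid and platelet markers summed to 21.5 and 28.2 CPM in WT, 112 in P65KO-labelled replicate 1 and 193 in replicate 2. All 4 that were tested rose, among them Hba-a1 and Hba-a2, whose reads may be shared between the copies. Alas2 had 9 and 8 counts in WT against 33 and 38. It passed the filter only through the P65KO-labelled libraries, so its call supports nothing by itself. The calls of Hbb-bs and Alas2 were lost when either WT library was left out, and that of Hbb-bs with no filter too.

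Most receptors of these ligands fell. Of 7, 6 were tested, 5 fell and Ccr1 did not pass, with a median log2 difference of -2.18. Over all genes tested, 11.7% were called lower. Cxcr3, which binds CXCL9 and CXCL10, had 980 and 1127 counts in WT against 134 and 99 in the P65KO-labelled pair. Ccr4, which binds CCL22, had 608 and 593 against 96 and 84. Cxcr6, the receptor for CXCL16, had 220 and 317 against 74 and 45. In each of these genes every P65KO-labelled library lay far below both WT libraries.

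Ccr3, a receptor for CCL5, had 54 and 71 against 16 and 10 counts, and its call ended without WT replicate 2 (edgeR BH-adjusted p = 0.0558). Ccr1 had 9 and 18 counts in WT, 42 in P65KO-labelled replicate 1 and 5 in replicate 2. Its log2 difference of 0.83 became -1.37 without replicate 1. Xcr1 had 5 and 10 counts in WT against 5 and 2 in the P65KO-labelled pair, too few to be tested.

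**Figure D4:**
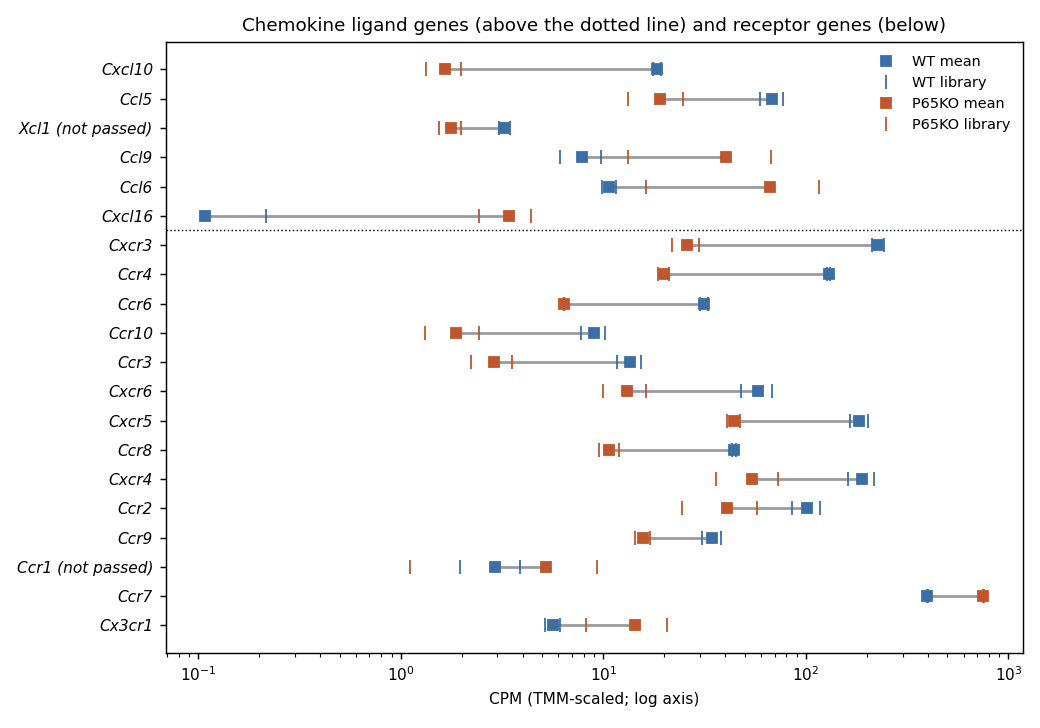
Mean level (squares) and single libraries (ticks) of tested chemokine ligand genes, above the dotted line, and of most tested receptor genes, below it, in TMM-scaled CPM on a log axis; a library at 0 (Cxcl16 in WT replicate 1) is not drawn. Most receptors lay lower in P65KO-labelled libraries (orange) than in WT (blue), as did Cxcl10 and Ccl5, while Cxcl16, Ccl6 and Ccl9 lay higher.

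Of the 15 other chemokine receptor genes, 9 were tested, 7 fell and 2 rose. Cxcr5, Ccr6, Ccr8, Ccr10 and Cxcr4 were among those that fell, Cxcr4 from 742 and 1007 counts to 331 and 162. The fall of Cxcr4 was not called with no filter or when WT replicate 2 was left out. Those that rose were Cx3cr1, from 28 and 24 counts to 93 and 37, and Ccr7, which was named after its values were seen. The call of Cx3cr1 was lost when P65KO-labelled replicate 1 was left out (edgeR BH-adjusted p = 0.324), and also with no filter, with DESeq2, with limma-voom and when either WT library was left out. That of Ccr10, with 47 and 36 counts in WT against 6 and 11, was lost when either WT library was left out. Ccr10 passed the filter only with the WT libraries, where it was high, so its call supports nothing by itself. Of 8 genes for shedding, trimming and matrix binding of chemokines, 2 fell, Ext1 and Ndst2, enzymes of heparan sulfate synthesis, and 6 did not pass. Both calls were lost with no filter, with DESeq2 and when either WT library was left out.

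Most transcription factors known to act on chemokine ligand genes were lower as well. Of 19, all tested, 12 fell and 1 rose, and 6 such as Rela did not pass, with a median log2 difference of -0.43. Over all genes tested the median was 0.0025, with 11.7% called lower and 9.0% higher. Tbx21 (T-bet), the T helper 1 factor that acts on Ccl5 and Ccl3 in T cells, had 117 and 122 counts in WT against 40 and 30 in the P65KO-labelled pair. Prdm1 (Blimp-1) had 199 and 188 against 57 and 43, Batf 489 and 638 against 160 and 181, and Irf4 510 and 528 against 227 and 177. Of the NF-kB family itself, Nfkb2 was 2.20-fold lower and Relb 2.02-fold. The gene that rose was Klf13, a late regulator of Ccl5 in T cells, 1.33-fold higher and named after its values were seen.

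Interferon-inducible genes that often accompany Cxcl9 and Cxcl10 changed less than Cxcl10. The 20 were all tested: 9 fell and 1 rose, while 10 did not pass, with a median log2 difference of -0.30 beside -3.45 for Cxcl10. No test of that difference in size was made. Among all genes tested, 11.7% were called lower and 9.0% higher. Rsad2 (viperin) had 65 and 53 counts in WT against 28 and 26 in the P65KO-labelled pair. Isg15, Gbp3, Gbp5 and Gbp6 fell 1.39-fold, 1.39-fold, 1.36-fold and 1.39-fold. Ciita, the class II transactivator of antigen-presenting cells, rose from 6 and 19 to 91 and 61 counts, in the libraries with more dendritic markers. Ciita passed the filter only with those libraries, so its call supports nothing by itself. With no filter on low counts 1 gene of the list fell and 0 rose, and when WT replicate 2 was left out 0 fell.

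The genes closest in pattern were sought by the distance between log2 CPM values over the 4 libraries, each centred on its own mean. For Ccl5 these were Cxcr4, Ell2 and Fgl2, at distances of 0.11, 0.12 and 0.13 on the log2 scale. Fgl2 had 423 and 633 counts in WT against 193 and 100 in the P65KO-labelled pair. For Cxcl10 they were Cxcr3, Glt28d2 and Serpina3g, at 0.07, 0.13 and 0.19. For Cxcl16 they were Pkib, which had the same 4 counts, Prss30 and Zfp385a. For Xcl1 they were 6530402F18Rik, Ei24 and Serpinb6b, at 0.04, 0.05 and 0.06. With 4 libraries in 2 groups many genes share such a pattern, so these distances are a description.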

How the data were processed

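Reads were handled with Subread, featureCounts and limma on GRCm38 (mm10), per the submitters' processing notes. Versions, annotation and strand setting were not given in the sources used here. The deposited counts are raw, 1 value per Entrez gene and library, and the authors also gave log2 RPKM per library. The deposited log2 RPKM equalled the log2 of the count plus 0.5 per gene length and library total, so gene lengths were computed back from it (whole within 0.01 bases for 27178 of 27179 genes) and used for RPKM without the offset. Genes with no symbol (571, 0.453% to 0.562% of the counts) carry an Entrez identifier and stayed in.

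Counts were filtered with filterByExpr (11172 genes kept), scaled by TMM and tested by edgeR's two-sided quasi-likelihood test (edgeR 4.0.16, R 4.3.3). Adjustment was by Benjamini-Hochberg (BH) over all genes tested, with a threshold of 0.05. Rose and fell are used only past it. SE is the log2 fold change divided by the square root of F. Members under the filter are given as count ratios with exact 95% conditional binomial intervals (SciPy 1.17.1). These cover counting error only, as do floors: 3 counts were 0.649 to 0.665 CPM, unscaled. Whether replicates are separate mice is not in the labels. The p-values then reflect the scatter of these libraries alone, possibly a technical one.

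Alternatives were no filter, DESeq2 1.42.0 size factors in edgeR, library totals, DESeq2, limma-voom (limma 3.58.1), a replicate block and leaving out each library. Genes were named by a rule: all members and their receptors, other ligands with 10 or more counts in a library, the first 4 markers of each marker list, up to 6 called genes without overlap per list, and the 3 genes nearest in pattern to each tested member. The members, the 16 lists and the tests were chosen with earlier results of these data known. Xcr1, Cxcr2, Eomes and Irf1 are among the genes in more than 1 list. Some genes that the rule names are not reported here. Tested on simulated counts for 11172 genes with 200 changed, the test recovered 43.1% of 1.5-fold changes, 70.4% of 2-fold and 94.4% of 4-fold changes, with 2 false calls of 144. No simulated library stood apart as P65KO-labelled replicate 1 did, so these rates need not hold for the real libraries. Coordinates and promoter windows came from RefSeq tables of GRCm38.p6, the same build, and exon overlaps from GENCODE M21.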

Additional observations from a re-analysis of the deposited data

How the results depend on the processing

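Of all genes, 1005 were higher and 1305 lower. The counts were 246 and 525 with no filter and 546 and 673 with DESeq2, and leaving out 1 library gave 250 to 682 and 493 to 1029. The fall of Ccl5 and Cxcl10 was called in every setting. The members called higher were 1, but 0 with no filter and 0 with DESeq2, and 0 to 3 with 1 library left out (3 without P65KO-labelled replicate 2: Ccl3, Ccl22 and Cxcl16, which passed the filter there only through 1 library where they were high, so these calls support nothing). For Cxcl16 the log2 difference was 4.67 with no filter and 4.99 with DESeq2, neither called, and 3.83 to 6.97 with 1 library left out. Leaving out 1 library moved the log2 count ratio of Ccl3 between 0.45 and 3.03, of Ccl22 between 0.71 and 2.96, and of Ccl4 between -1.19 and 1.13. With 1 library left out, the log2 difference ranged from -1.37 to 1.66 for Ccr1, from -1.54 to 1.74 for S100a8, from -0.50 to 1.86 for S100a9, from -1.03 to 2.09 for Ltf and from -0.42 to 1.0 for Ncr1. It was also -0.28 for Ncr1 without P65KO-labelled replicate 1, the library whose absence turned the sign of the other 4. The cause was not tested. A replicate block gave 996 higher and 1323 lower genes and changed no member's call, but 2 neutrophil markers were then higher. Deviations of equal replicate numbers correlated at -0.14 over 11172 genes. With 2 libraries per group this value cannot show whether equal numbers share a mouse, batch or day, which the labels do not say. The crossed pairing, chosen after seeing the data, gave 1387 higher and 1586 lower genes. Among 58 other named genes with a test, 515 of 638 alternative values kept direction and call, 111 lost the call, 6 gained it and 6 turned. Interferon-inducible genes called lower went from 9 to between 1 and 9 over other settings and 0 to 3 with 1 library left out; for transcription factors, 12 became 7 to 12 and 7 to 9. Differences in genes with few counts, such as Cxcl9, were not detectable at this depth.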

Other observations

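Most other chemokine ligand genes had no or few counts. Of 33, 18 had 0 counts in all 4 libraries, which allows up to 3 counts, or 0.649 to 0.665 CPM, in a library. They included the stromal ligands Ccl19, Ccl21a and Cxcl12, the monocyte attractants Ccl2 and Ccl7 and the platelet gene Pf4, all named after their values were seen. Ccl17, which lies near Ccl22 on chromosome 8 and encodes the other CCR4 ligand, had 1 count in WT replicate 2 and 0 in the other libraries. Its low counts stood beside 19 counts of Ccl22 in P65KO-labelled replicate 1.

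The summed level of the other 33 ligands was 24.5 and 25.8 CPM in WT, 189 CPM in P65KO-labelled replicate 1 and 31.2 CPM in replicate 2, most of it from Ccl6 and Ccl9. The sum of the 8 members went the other way, from 82.9 and 103 CPM in WT to 46.8 and 22.4 CPM. In WT libraries the 8 members therefore held the larger sum, and in both P65KO-labelled libraries the other ligands did.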
